A study of Mus musculus with 24 samples.

Results

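The amyloid precursor protein (APP) family and the secretases that cut it were followed in the mouse retina through 9 genes, picked by symbol from the 28802 genes of the expression table. They comprised App and its relatives Aplp1 and Aplp2, the β-secretase Bace1, and the γ-secretase genes Ncstn, Psen2, Aph1a, Aph1b and Psenen. All 9 were present, and all 9 passed the filter of a mean of at least 0.5 cpm (counts of a gene scaled to a fixed total of reads), which left 16400 genes for testing. Aph1c, a close relative of Aph1b, is described beside it and is not counted among the 9.

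APP is a membrane protein of neurons and many other cells. Cleavage by the β-secretase BACE1 sheds most of the part outside the cell, and γ-secretase then cuts the remaining stub within the membrane, releasing the amyloid β peptide and an intracellular domain. The γ-secretase complex combines a catalytic presenilin with nicastrin, an APH1 protein and the presenilin enhancer, and it also cuts Notch receptors and many other membrane proteins. In the retina, ganglion cells make APP and carry it along their axons into the optic nerve.

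The study compared retinal gene expression between inbred strains that differ in refraction. Retinas came from wild type mice at postnatal day 28, and 3 libraries of total RNA depleted of ribosomal RNA were made for each of 8 strains, 24 in all. The strains were 129S1/Svlmj, A/J, C57BL/6J, NOD/ShiLtJ and NZO/HlLtJ, which are classical laboratory strains, and CAST/EiJ, PWK/PhJ and WSB/EiJ, which are wild-derived. Baseline refractive error, form-deprivation myopia (the myopia induced by a diffuser over an eye) and contrast sensitivity were measured in other mice of these strains, so the 3 libraries of a strain share 1 value of each. The totals behind the cpm values, worked back from the size of 1 read in each library and not read from a sequencing record, were 57606938 to 78149788 (median 68942622). The genes of the table summed to between 332472 and 366570 cpm per library, so these totals also held reads outside them. The labels do not give the sex of the mice, and Xist, the RNA that silences an X chromosome in female cells, lay between 906 and 1081 cpm in 4 libraries (129S1/Svlmj, C57BL/6J and CAST/EiJ replicate 3 and PWK/PhJ replicate 2) and at most at 9.71 cpm in the others. Libraries were pooled for sequencing in randomized blocks according to the study's methods. Batches of earlier steps are not in the labels, and as library codes ran consecutively by strain, a batch in those steps and a strain could not be told apart here.

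Marker genes matched the retina label. The 4 markers of Müller glia summed to between 705 and 983 cpm per library, led by Glul with a mean of 609 cpm, and the 4 cone markers to between 133 and 271 cpm, led by Opn1sw with 109 cpm. Of the defining markers of neighbouring tissue, Best1 of the pigment epithelium averaged 0.040 cpm, Pax2 of astrocytes 0.046 cpm and Mog of oligodendrocytes 0.079 cpm. RNA of neighbouring tissue stood out in a few libraries. The 5 lens markers, led by Cryaa, had a median sum of 16.0 cpm but reached 1435 cpm in NOD/ShiLtJ replicate 2, 1283 cpm in 129S1/Svlmj replicate 2 and 167 cpm in C57BL/6J replicate 2. In PWK/PhJ all 3 libraries lay above this median, at 57.4, 38.7 and 71.9 cpm. The sum of 3 oligodendrocyte markers (median 9.93 cpm) was 54.1 cpm in NOD/ShiLtJ replicate 3 and 30.9 cpm in NZO/HlLtJ replicate 1. That of 4 pigment epithelium markers (median 5.89 cpm) was 18.1 cpm in A/J replicate 3 and 15.9 cpm in WSB/EiJ replicate 1. An alternative without the first 2 libraries named for lens, the lens-rich libraries, was chosen after the data were seen. Its F-test called 16399 of 16400 genes, so that all 9 members passed says nothing about lens RNA. In it 23 calls of a member in a strain were made (31.7% of all comparisons of all genes) where 24 are described below (32.6%), and the 1 lost was Aph1b in 129S1/Svlmj (q = 0.0212). In CAST/EiJ the summed markers of cones (139 ± 5.20 cpm, SD, n = 3), bipolar cells (358 ± 11.9 cpm) and ganglion cells (135 ± 0.76 cpm) had the lowest means of all strains. The bipolar sum overlapped those of A/J, C57BL/6J and 129S1/Svlmj. Markers of microglia (2.25 cpm), endothelium (3.51 cpm), oligodendrocytes (8.46 cpm) and blood cells (11.2 cpm) also had their lowest strain mean in CAST/EiJ. Other cell types did not all follow, and amacrine markers stood at 100, 103 and 104 cpm in CAST/EiJ with a median of 101 cpm over all libraries. The highest sums were 261 ± 12.9 cpm in WSB/EiJ for cones, 522 ± 35.7 cpm in WSB/EiJ for bipolar cells and 229 ± 13.9 cpm in C57BL/6J for ganglion cells. In such bulk samples, fewer cells of a type and less RNA per cell cannot be told apart.

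By the mean over the 24 libraries, Aplp2 had the highest level for its length and Aph1b the lowest of the 9 genes. Per kilobase of merged exons, the mean level over the 24 libraries was 45.0 cpm for Aplp2, against 6.81 for Bace1, 6.37 for App and 6.10 for Aplp1. The γ-secretase genes were lower on this scale, at 2.60 cpm per kilobase for Psenen, 2.34 for Ncstn, 1.92 for Aph1a, 1.23 for Psen2 and 1.11 for Aph1b. Which of Psen2 and Aph1b was lower depended on the strain. Psen2 was the lower in A/J (1.19 against 1.45), NZO/HlLtJ (1.22 against 1.36), CAST/EiJ (0.798 against 0.834) and C57BL/6J (1.2627 against 1.2639). In the other strains Aph1b was the lower. Aph1c came to 0.234 cpm per kilobase. Read numbers per gene and library, worked back in the same way, ranged from 166 to 309 for Psenen and from 15811 to 21538 for Aplp2, so the counting error in the lowest library was 7.77% and 0.80% of the value.

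All 9 genes differed between the strains in limma's moderated F-test at a Storey q-value under 0.01, as did 97.2% of all genes tested. A count at this background says nothing particular about the 9 genes. With the Benjamini-Hochberg adjusted p, 6 of the 9 genes and 70.6% of all genes passed, and without the filter 8 and 68.5%. The difference between the highest and the lowest strain mean on the log2(cpm + 1) scale had a median of 0.43 over all genes. Psen2 (0.72) and Aph1b (0.71) exceeded about 78.1% and 78.0% of genes, Bace1 (0.54) 64.2% and Aplp1 (0.45) 53.4%. Below the median gene were Psenen (0.41), App (0.37), Ncstn (0.28), Aplp2 (0.23) and Aph1a (0.19), of which Aph1a exceeded 7.65% of genes and Aplp2 13.4%. Without the 3 wild-derived strains, 4 of the 9 genes (App, Aplp1, Aph1b and Bace1) and 50.3% of all genes differed between the remaining strains.

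Each strain was then compared with the mean of the other 7 in the same fit, which gave 72 comparisons for the 9 genes. Of these, 24 (33.3%) passed the q-value threshold, against 32.6% over all genes, with 11 higher and 13 lower. In 129S1/Svlmj 4 of the genes passed, all lower (27.5% of all genes passed in either direction), in A/J 2, both higher (27.7%), and in C57BL/6J 1, higher (22.6%). CAST/EiJ had 5, 1 higher and 4 lower (49.4%), NOD/ShiLtJ 2, both higher (24.0%), and NZO/HlLtJ 4, 2 higher and 2 lower (25.9%). PWK/PhJ had 4, 3 higher and 1 lower (49.4%), and WSB/EiJ 2, both lower (34.5%). Calls over all genes also leaned lower in CAST/EiJ (3327 higher, 4767 lower) and WSB/EiJ (2077 and 3588), but not in 129S1/Svlmj (2386 and 2124). The share of calls was thus close to that of genes in general. The 3 libraries of a strain lay wholly above or below those of another strain in 104 of 252 combinations of gene and strain pair (41.3%), against 45.8% for all genes. Of the 24 calls, 13 held when any single library was left out and 11 were lost without at least 1 library, each named below.

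**Figure D1:**
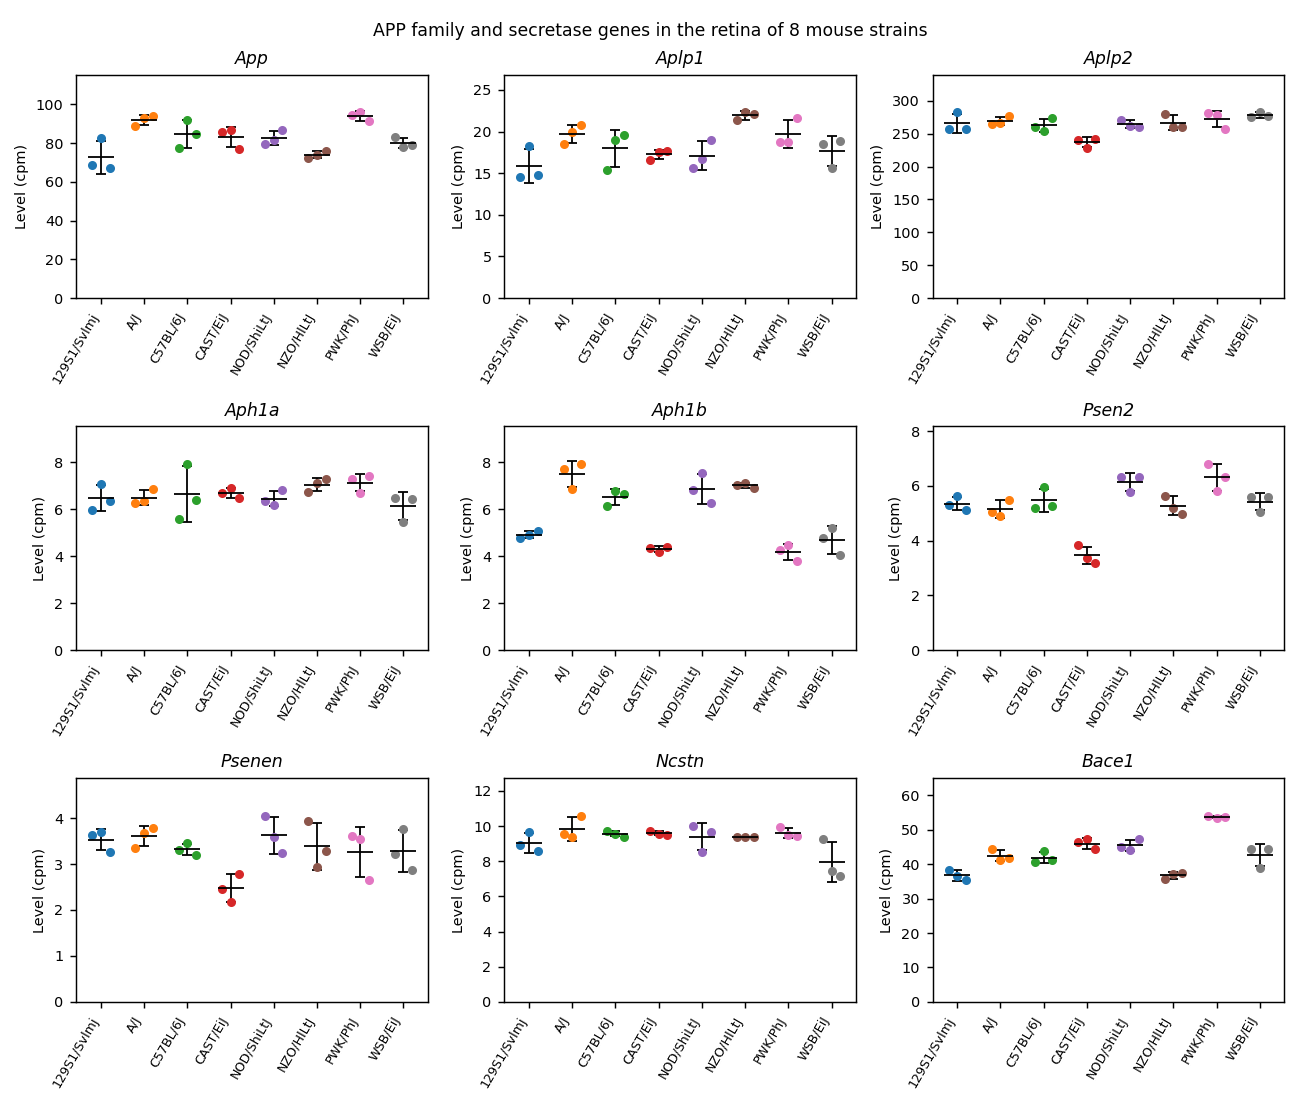
Level in cpm (vertical axis) of each of the 9 genes in the 3 libraries of each of 8 strains (horizontal axis), with points for libraries, a long bar for the mean and whiskers for the SD. Psen2 is lowest in CAST/EiJ, Bace1 is highest in PWK/PhJ, and the libraries of Aph1b separate into 4 strains at 6.15 cpm or more and 4 at 5.21 cpm or less.

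App, the gene of the precursor itself (chr16:84949685-85173766 of the mouse genome GRCm38, minus strand), varied by 1.29-fold between strain means. It stood at 91.4, 94.3 and 96.1 cpm in PWK/PhJ and at 88.8, 93.0 and 93.7 cpm in A/J. In 129S1/Svlmj it stood at 66.9, 68.5 and 82.4 cpm, and in NZO/HlLtJ at 72.4, 73.7 and 76.1 cpm. PWK/PhJ and A/J overlapped each other at the upper end, and 129S1/Svlmj and NZO/HlLtJ at the lower end. In between, C57BL/6J (84.6 ± 7.26 cpm, SD, n = 3), CAST/EiJ (83.2 ± 5.31), NOD/ShiLtJ (82.5 ± 3.74) and WSB/EiJ (80.0 ± 2.64) followed in the order of means. Among neighbours in this order only WSB/EiJ and NZO/HlLtJ did not overlap, and 129S1/Svlmj replicate 2, of the lowest strain, lay within the range of WSB/EiJ. Against the other 7 strains the log2 difference was 0.21 in PWK/PhJ (SE 0.05, q = 3.33e-04), 0.18 in A/J (q = 0.0038), -0.21 in 129S1/Svlmj (q = 8.37e-04) and -0.17 in NZO/HlLtJ (q = 0.0045). Only the call in PWK/PhJ held without each library. The call in A/J was lost without its replicate 2 (q = 0.0276) or 3 (q = 0.0284), over a range of q from 4.65e-04 to 0.0284 among all alternatives. That in 129S1/Svlmj was lost without its replicate 1 (q = 0.0144) or 3 (q = 0.0238), with q between 2.89e-05 and 0.0238. That in NZO/HlLtJ was lost without its replicate 1 (q = 0.0387), 2 (q = 0.0255) or 3 (q = 0.0120) and with the Benjamini-Hochberg adjusted p (0.0107), with q from 0.0011 to 0.0387. The highest 129S1/Svlmj library for App, replicate 2 at 82.4 cpm, was the lens-rich library of that strain, and the part of lens RNA in its level was not tested.

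Aplp1 (chr7:30434982-30445535, minus strand) encodes an APP-like protein made mainly by neurons. Its level was 21.3, 22.1 and 22.4 cpm in NZO/HlLtJ and 14.6, 14.8 and 18.2 cpm in 129S1/Svlmj, the highest and lowest strains by their means. NZO/HlLtJ lay above all 3 libraries of A/J (19.7 ± 1.12 cpm, SD, n = 3), its nearest neighbour by mean, but overlapped PWK/PhJ, the next strain, and all lower neighbours overlapped. The remaining means fell between 19.7 ± 1.64 cpm in PWK/PhJ and 17.1 ± 1.71 cpm in NOD/ShiLtJ. The log2 difference from the other 7 strains was 0.29 in NZO/HlLtJ (SE 0.07, q = 0.0012) and -0.23 in 129S1/Svlmj (SE 0.07, q = 0.0056). Without NZO/HlLtJ replicate 2 the first call was lost (q = 0.0116, over a range of 2.58e-04 to 0.0116). The second was lost without 129S1/Svlmj replicate 1 (q = 0.0554) or 3 (q = 0.0555), without the filter (q = 0.0105) and with the Benjamini-Hochberg adjusted p (0.0146), with q from 0.0011 to 0.0555. Here too the lens-rich replicate 2 was the highest 129S1/Svlmj library.

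Aplp2 (chr9:31149557-31211815, minus strand), the broadly expressed APP-like gene, was low in a single strain. Its level was 229, 241 and 242 cpm in CAST/EiJ, and between 254 and 283 cpm in the 21 libraries of the other strains. The CAST/EiJ libraries were therefore the 3 lowest of 24. The other strains ran from WSB/EiJ (278 ± 4.45 cpm, SD, n = 3) to C57BL/6J (263 ± 9.73 cpm) with every pair of neighbours overlapping. Aplp2 was lower in CAST/EiJ than in the other 7 strains (log2 difference -0.18, SE 0.03, q = 4.76e-05). Without the 3 wild-derived strains no difference of Aplp2 between strains was called (F = 0.16, q = 0.155, over a range of q from 2.31e-05 to 0.155 among the alternatives).

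Bace1 (chr9:45838580-45864399, plus strand) encodes the β-secretase and had the closest replicates of the 9 genes relative to the span of its strain means. It stood at 53.5, 53.8 and 54.2 cpm in PWK/PhJ, at 44.4, 46.4 and 47.3 cpm in CAST/EiJ and at 44.1, 44.9 and 47.3 cpm in NOD/ShiLtJ. In WSB/EiJ it stood at 39.0, 44.5 and 44.6 cpm, in A/J at 41.4, 41.8 and 44.4 cpm and in C57BL/6J at 40.8, 41.2 and 43.9 cpm. In NZO/HlLtJ it stood at 35.6, 37.2 and 37.6 cpm and in 129S1/Svlmj at 35.4, 36.5 and 38.3 cpm. PWK/PhJ thus lay apart at the top, and NZO/HlLtJ and 129S1/Svlmj, which overlapped, apart at the bottom. From CAST/EiJ to C57BL/6J each strain overlapped its neighbours, but CAST/EiJ lay above A/J and C57BL/6J, and NOD/ShiLtJ above C57BL/6J. The span of the means was 0.54 on the log2 scale, or 9.22 times the SD within strains, against 4.53 times for the median gene. Bace1 was higher in PWK/PhJ than in the other 7 strains (log2 difference 0.36, SE 0.04, q = 8.07e-09) and lower in 129S1/Svlmj (-0.25, q = 6.83e-06) and NZO/HlLtJ (-0.25, q = 8.40e-06). These 3 calls held without each library. A smaller difference in CAST/EiJ (0.11, q = 0.0047) was lost without its replicate 1 (q = 0.0236) or 2 (q = 0.0311) and with the Benjamini-Hochberg adjusted p (0.0169), with q from 4.64e-04 to 0.0311 among the alternatives. Rnf214 on the opposite strand shares 975 exon bases with Bace1 (15.4% of its exons) and Gm49338 951 (15.0%). The sources used here do not say if counting took the strand of reads into account.

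Ncstn (chr1:172066013-172082795, minus strand) encodes nicastrin, the subunit that receives substrates of γ-secretase. It stood at 7.13, 7.45 and 9.25 cpm in WSB/EiJ, the lowest strain, and its mean was between 9.05 ± 0.57 cpm (SD, n = 3) in 129S1/Svlmj and 9.83 ± 0.67 cpm in A/J elsewhere. All neighbours in this order overlapped, since WSB/EiJ replicate 1 lay among the other strains. Ncstn was lower in WSB/EiJ than in the other 7 strains (log2 difference -0.24, SE 0.05, q = 4.56e-04). The call was lost without WSB/EiJ replicate 3 (q = 0.0155, over a range of 1.15e-05 to 0.0155). The difference between the 8 strains was also lost with the Benjamini-Hochberg adjusted p (0.0243) and without the wild-derived strains (q = 0.101, the highest of a range from 1.06e-05). Copa, at a mean of 60.8 cpm against 9.30 for Ncstn, shares 195 exon bases (4.91%) with it on the opposite strand, and the part of its reads in the level of Ncstn was not tested.

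Psen2 (chr1:180227004-180263438, minus strand) encodes a presenilin, the catalytic subunit, and showed the largest log2 difference of a single strain among the 9 genes. It stood at 3.20, 3.35 and 3.82 cpm in CAST/EiJ, and the lowest of the other 21 libraries reached 4.89 cpm. It stood at 5.82, 6.32 and 6.82 cpm in PWK/PhJ and at 5.76, 6.33 and 6.35 cpm in NOD/ShiLtJ. CAST/EiJ was set apart from A/J (5.15 ± 0.32 cpm, SD, n = 3), the next strain, and all higher neighbours overlapped. These were, downwards from PWK/PhJ and NOD/ShiLtJ, C57BL/6J (5.47 ± 0.42 cpm), WSB/EiJ (5.42 ± 0.32), 129S1/Svlmj (5.35 ± 0.25), NZO/HlLtJ (5.28 ± 0.35) and A/J. Psen2 was lower in CAST/EiJ than in the other 7 strains (log2 difference -0.56, SE 0.05, q = 2.08e-09), and higher in PWK/PhJ (0.25, q = 1.04e-04) and NOD/ShiLtJ (0.22, q = 0.0015). The calls in CAST/EiJ and PWK/PhJ held without each library. That in NOD/ShiLtJ was lost without its replicate 1 (q = 0.0186) or 3 (q = 0.0189), with q from 8.36e-04 to 0.0189. Without the wild-derived strains the difference of Psen2 between strains missed the threshold (q = 0.0144, the highest of a range from 2.75e-09).

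Psenen (chr7:30561863-30563627, minus strand), the gene of the presenilin enhancer, was lowest in the same strain. Its level was 2.18, 2.46 and 2.79 cpm in CAST/EiJ and 2.65, 3.54 and 3.61 cpm in PWK/PhJ, the next strain. These 2 strains overlapped through PWK/PhJ replicate 3, and the means of the others ran from 3.27 ± 0.54 cpm (SD, n = 3) in PWK/PhJ to 3.63 ± 0.41 cpm in NOD/ShiLtJ, all overlapping. Psenen was lower in CAST/EiJ than in the other 7 strains (log2 difference -0.35, SE 0.08, q = 1.35e-04). Over the 8 strains its difference was lost with the Benjamini-Hochberg adjusted p (0.0149) and without the wild-derived strains (q = 0.122, the highest of a range from 1.21e-04). Of its exon bases, 119 (9.33%) are shared with U2af1l4 and 111 (8.71%) with Gm49396 on the opposite strand. Aplp2, Psen2 and Psenen were thus all lowest in CAST/EiJ by their means, and the part of cell composition in these differences was not tested.

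Aph1a (chr3:95893969-95898288, plus strand), which encodes the more widely used APH1 subunit, varied least of the 9 genes. Its mean ranged from 6.12 ± 0.58 cpm (SD, n = 3) in WSB/EiJ to 7.13 ± 0.38 cpm in PWK/PhJ, and every neighbour in the order overlapped. Only 2 of its 28 strain pairs did not overlap, against 13 for the median gene. None of its 8 comparisons of a strain with the others passed the threshold (0 calls by limma, and 0 at an unadjusted p under 0.05). Its F-test over the strains (F = 1.11) had an unadjusted p of 0.394. Its q of 0.0085 was lower than this p because Storey's method multiplies by the estimated share of genes without a strain difference, here 2.08%. The call was lost with the Benjamini-Hochberg adjusted p (0.408), without the filter (q = 0.0553) and without the wild-derived strains (q = 0.120), and q ranged from 0.0012 to 0.408. It was also lost without any 1 of 11 libraries, among them PWK/PhJ replicate 1 (q = 0.0137) and NOD/ShiLtJ replicate 1 (q = 0.0135). Car14 on the opposite strand shares 445 of its exon bases (12.9%).

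Aph1b (chr9:66775202-66795490, minus strand) encodes the other APH1 subunit and had the largest F of the 9 genes (31.5). It stood at 6.88, 7.70 and 7.94 cpm in A/J, at 6.92, 7.04 and 7.14 cpm in NZO/HlLtJ, at 6.28, 6.80 and 7.55 cpm in NOD/ShiLtJ and at 6.15, 6.63 and 6.80 cpm in C57BL/6J. It stood at 4.79, 4.88 and 5.07 cpm in 129S1/Svlmj, at 4.05, 4.78 and 5.21 cpm in WSB/EiJ, at 4.17, 4.33 and 4.41 cpm in CAST/EiJ and at 3.81, 4.27 and 4.48 cpm in PWK/PhJ. The order therefore held 2 groups of 4 strains, with a gap between C57BL/6J and 129S1/Svlmj, and within each group all neighbours overlapped. The mean in A/J was 1.79 times that in PWK/PhJ, and 20 of 28 strain pairs did not overlap, as many as for Bace1.

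Aph1b passed the threshold in each of the 8 comparisons of a strain with the other 7. The log2 difference was 0.41 in A/J (SE 0.06, q = 2.00e-06), 0.32 in NZO/HlLtJ (q = 5.37e-05), 0.28 in NOD/ShiLtJ (q = 2.03e-04) and 0.21 in C57BL/6J (q = 0.0032). It was -0.41 in PWK/PhJ (q = 6.31e-07), -0.37 in CAST/EiJ (q = 2.54e-06), -0.26 in WSB/EiJ (q = 2.80e-04) and -0.19 in 129S1/Svlmj (q = 0.0050). The strains on both sides of the gap thus included classical ones, and the 3 wild-derived strains were all on the lower side. The call in 129S1/Svlmj was lost without its replicate 1 (q = 0.0289), 2 (q = 0.0207) or 3 (q = 0.0150) and with the Benjamini-Hochberg adjusted p (0.0129), with q from 6.18e-04 to 0.0289. That in C57BL/6J was lost without its replicate 2 (q = 0.0252) or 3 (q = 0.0225), with q from 0.0014 to 0.0252. That in WSB/EiJ was lost without its replicate 3 (q = 0.0129, the highest of a range from 1.18e-05). The remaining 5 calls of Aph1b held without each library.

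Aph1c (chr9:66814994-66834726, minus strand) is a copy of Aph1b that lies 19.5 kb away. Its level was 1.72, 2.06 and 2.24 cpm in PWK/PhJ and 1.83, 1.87 and 2.06 cpm in CAST/EiJ, and at most 1.21 cpm in the other 18 libraries. PWK/PhJ and CAST/EiJ were thus the highest strains for Aph1c and the lowest for Aph1b. The log2 difference from the other 7 strains was 0.53 in PWK/PhJ (SE 0.07, q = 1.55e-07) and 0.49 in CAST/EiJ (q = 5.41e-07). In WSB/EiJ, which was low for both copies, it was -0.38 (0.73 ± 0.21 cpm, SD, n = 3, q = 3.16e-05). Aph1c was also lower in 129S1/Svlmj (-0.25, q = 0.0025) and NOD/ShiLtJ (-0.23, q = 0.0046). The first of these calls was lost without 129S1/Svlmj replicate 1 (q = 0.0431), and q ranged from 6.42e-04 to 0.0431. The second was lost without NOD/ShiLtJ replicate 1 (q = 0.0143), 2 (q = 0.0570) or 3 (q = 0.0101), of which replicate 2 is lens-rich. It was also lost without both lens-rich libraries (q = 0.0575), with lens markers as a covariate (q = 0.0143) and with the Benjamini-Hochberg adjusted p (0.0107), and q ranged from 0.0014 to 0.0575. With 33.0 to 150 reads per library, the counting error of Aph1c was 17.4% at the lowest level.

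**Figure D2:**
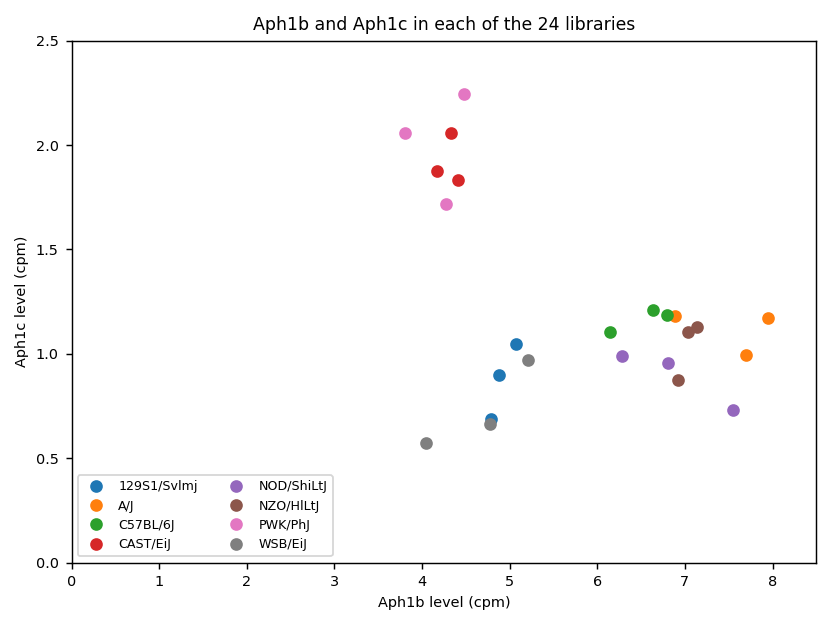
Level of Aph1b (horizontal axis, cpm) against that of Aph1c (vertical axis, cpm), with 1 point for each of the 24 libraries, coloured by strain. The 6 libraries of PWK/PhJ and CAST/EiJ lie at 1.72 cpm or more of Aph1c and at 4.48 cpm or less of Aph1b.

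Reads of Aph1b and Aph1c are partly hard to tell apart, because the copies share sequence. Of the 31-base windows of the Aph1b transcript with the longest coding sequence, 1281 of 4880 (26.2%) also occur in that of Aph1c, and of the 100-base windows 451 of 4811 (9.37%). Their coding sequences of 771 and 774 bases were identical at 745 of 770 aligned bases (96.8%). Most windows of either length were thus not shared, and most of them lie outside the coding sequence. The stretch of 90 coding bases with the most differences, 9, lies in exon 1. It is shown as an example of bases at which reads can separate the copies. It spans coding bases 11 to 100, at chr9:66795266-66795355 for Aph1b and chr9:66834499-66834588 for Aph1c, both on the minus strand of GRCm38, in the GENCODE vM21 transcripts, with capitals at the bases that differ:
Aph1b: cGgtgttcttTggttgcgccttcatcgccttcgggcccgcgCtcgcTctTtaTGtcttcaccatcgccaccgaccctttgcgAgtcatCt
Aph1c: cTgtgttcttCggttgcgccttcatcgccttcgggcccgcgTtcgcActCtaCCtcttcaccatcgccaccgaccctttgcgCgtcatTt
The genome used for alignment is that of C57BL/6J, and the effect of strain sequence on the split of reads was not tested. The values of both copies were therefore also added. The sum was 8.62 ± 0.53 cpm (SD, n = 3) in A/J, 8.07 ± 0.24 in NZO/HlLtJ, 7.77 ± 0.50 in NOD/ShiLtJ and 7.69 ± 0.39 in C57BL/6J. It was 6.22 ± 0.17 cpm in CAST/EiJ, 6.19 ± 0.46 in PWK/PhJ, 5.79 ± 0.32 in 129S1/Svlmj and 5.41 ± 0.78 in WSB/EiJ, so the same 4 strains stayed above the gap. With the sum, the differences of CAST/EiJ (q = 0.0101) and C57BL/6J (q = 0.0175) from the other strains missed the threshold. For Aph1b in CAST/EiJ, q ranged from 5.75e-07 to 0.0101 over all alternatives.

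Some members are neighbours on their chromosomes. Aplp1 and Psenen lie 116 kb apart on chromosome 7, and Ncstn and Psen2 8.14 Mb apart on chromosome 1. Aplp2, Bace1 and Aph1b are all on chromosome 9, with 14.6 Mb between Aplp2 and Bace1 and 20.9 Mb between Bace1 and Aph1b. The neighbouring pair Aplp1 and Psenen did not share an order of strains, with Pearson's r of -0.10 between their log2 levels over the 24 libraries, which share strains. Over the same libraries r was 0.75 for Aplp2 and Psenen, 0.74 for App and Bace1, 0.71 for Aplp2 and Psen2, 0.67 for Aplp1 and Aph1a, and 0.61 for Psen2 and Psenen. Between Aph1b and Aph1c it was -0.41.

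Among 9266 other genes that averaged 5 cpm or more, those with the levels most like a member over the 24 libraries differed from member to member. App was closest to Gpr152 (r = 0.905) and Nfe2l1 (r = 0.892), Aplp1 to Rell2 (r = 0.788) and Srrt (r = 0.786), and Aplp2 to Phospho2 and Fig4 (both r = 0.868). Bace1 was closest to Ubap1l (r = 0.927), also on chromosome 9, and Sdc3 (r = 0.912). Of the γ-secretase genes, Ncstn was closest to Usp4 (r = 0.844) and Vps16 (r = 0.832), Psen2 to Pmvk (r = 0.927) and 9530085L11Rik (r = 0.919), and Psenen to Nt5c3b (r = 0.862) and Zcrb1 (r = 0.854). Aph1a was close to Eif4h (r = 0.865), and Aph1b was closest to Cisd2 (r = 0.946) and Ero1lb (r = 0.937). After strain means were subtracted, r was 0.917 for Aph1a with Eif4h, 0.634 for Aph1b with Cisd2 and 0.583 for Psen2 with Pmvk. The likeness of Aph1b and Psen2 to these genes thus lay partly in strain means, while that of Aph1a and Eif4h was present within strains.

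The study relates retinal expression to 3 traits of the strains, and the 9 genes were regressed on each with limma. The shares of all genes that passed depended on CAST/EiJ. Without its replicate 1, 2 or 3 they were 11.3%, 10.9% and 11.99% for baseline refractive error, 4.90%, 4.43% and 6.06% for form-deprivation myopia and 1.46%, 1.79% and 1.38% for contrast sensitivity, against the shares from all libraries given below. For baseline refractive error, 15.5% of all genes passed but 0 of the 9 members did, 3 of which had an unadjusted p under 0.05. The fitted log2 difference from 129S1/Svlmj, the most myopic strain, to CAST/EiJ, the most hyperopic, was 0.30 ± 0.10 (SE) for Bace1 (t = 3.10, q = 0.0126), -0.28 ± 0.09 for Psenen (t = -2.98, q = 0.0152) and -0.37 ± 0.17 for Aph1b (t = -2.19, q = 0.0526). For the other members t lay between -1.69 (Psen2) and 1.90 (Aplp1). Bace1 and Psenen were thus near the threshold, and some settings took them past it. No member passed with strain means as the unit, with strain as a random effect, without CAST/EiJ or without the wild-derived strains. Bace1 passed after median-ratio scaling (q = 0.0045), quantile normalization (q = 0.0065) and with lens markers as a covariate (q = 0.0093). It also passed without NOD/ShiLtJ replicate 3 (q = 0.0090), WSB/EiJ replicate 2 (q = 0.0089) or NZO/HlLtJ replicate 1 (q = 0.0051), 2 (q = 0.0076) or 3 (q = 0.0081), with q from 7.80e-04 to 0.670 over all alternatives. Psenen passed without 129S1/Svlmj replicate 3 (q = 0.0097) or NZO/HlLtJ replicate 1 (q = 0.0086), with q from 0.0048 to 0.549. The direction of Aph1b was not stable: without the wild-derived strains its t was 4.10 (q = 0.0182), and without 129S1/Svlmj -6.49 (q = 3.65e-05, the lowest of a range up to 0.450).

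For form-deprivation myopia, 10.9% of all genes passed, and of the 9 members 1 did, with 5 at an unadjusted p under 0.05. Aph1b fell with susceptibility. Its mean was 7.03 ± 0.11 cpm (SD, n = 3) where susceptibility was least, in NZO/HlLtJ, and 4.30 ± 0.12 cpm where it was greatest, in CAST/EiJ. The fitted log2 difference between them was -0.79 ± 0.15 (SE, t = -5.41, q = 5.51e-04). With the values of both copies added, the gene still passed (t = -3.92, q = 0.0047). The call held without each library (q from 4.83e-04 to 0.0024), but not with strain means as the unit (q = 0.453), with strain as a random effect (q = 0.0281), without CAST/EiJ (q = 0.0101) or without the 3 wild-derived strains (q = 0.199). Over all alternatives q ranged from 3.85e-06 to 0.453. With strain means as the unit 0 of the 16400 genes passed for this trait in limma, and 1446 had an unadjusted p under 0.05. The other members did not pass, with t of -2.75 for Psenen (q = 0.0300), -2.69 for Psen2 (q = 0.0332), -2.63 for Aplp1 (q = 0.0359) and 2.57 for Bace1 (q = 0.0396). Without NZO/HlLtJ replicate 2 Psenen passed (q = 0.0064, over a range from 7.65e-04 to 0.627). It also passed without the whole strain NZO/HlLtJ (q = 7.65e-04). Psen2 passed without NZO/HlLtJ (q = 4.66e-04) or PWK/PhJ (q = 0.0094), with q up to 0.693 among the alternatives.

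For contrast sensitivity at 0.064 cycles per degree, values of 7 strains and 21 libraries were used, without A/J. None of the 9 genes passed (0 calls by limma, and 4 at an unadjusted p under 0.05), where 5.12% of all genes passed. The largest t among members were -3.21 for Aplp2 (q = 0.0235), -2.74 for Psen2 (q = 0.0455), -2.18 for Aph1b (q = 0.0936) and -2.14 for Aplp1 (q = 0.0979). All 4 were negative, from NZO/HlLtJ with the lowest contrast sensitivity of the 7 strains used to CAST/EiJ with the highest. A/J, left out here, was the highest strain for Aph1b (7.51 ± 0.55 cpm, SD, n = 3). The paper, which analyzed all 8 strains, names APH1B among contrast-related genes linked to form-deprivation myopia. The missed call of Aph1b thus rests on a smaller set of strains. For Psen2 the sign turned without CAST/EiJ, for this trait (t = 0.93) as for baseline refractive error (t = 1.10) and form-deprivation myopia (t = 0.88). The median t of the 9 genes was -0.0062 for baseline refractive error (all genes -0.23), -1.76 for form-deprivation myopia (all genes -0.27) and -2.05 for contrast sensitivity (all genes 0.0027). Aph1c had a positive t for all 3 traits, 3.75 (q = 0.0041) for baseline refractive error, 2.27 (q = 0.0613) for form-deprivation myopia and 3.19 (q = 0.0243) for contrast sensitivity. Only the first passed, and it was lost without CAST/EiJ replicate 1 (q = 0.0116) or 2 (q = 0.0111). It was also lost without PWK/PhJ (q = 0.0337), CAST/EiJ (q = 0.0610), NOD/ShiLtJ (q = 0.0127) or the 3 wild-derived strains (q = 0.280), with strain as a random effect (q = 0.107) and with strain means as the unit (q = 0.310, the highest of a range from 1.12e-04). For contrast sensitivity Aph1c passed without 129S1/Svlmj replicate 1 (q = 0.0096, over a range from 0.0023 to 0.802). It also passed without the whole strain 129S1/Svlmj (q = 0.0023) or PWK/PhJ (q = 0.0093). For form-deprivation myopia it passed without WSB/EiJ (t = 3.53, q = 0.0077, the lowest of a range up to 0.673).

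**Figure D3:**
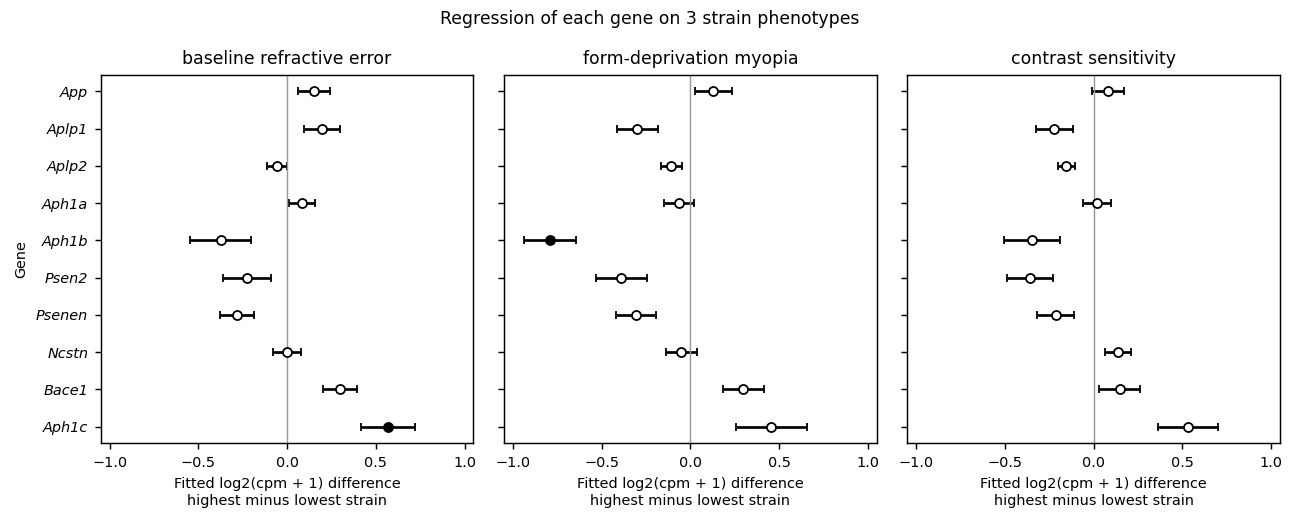
Fitted log2(cpm + 1) difference between the strains with the highest and the lowest value of each trait (horizontal axis) for the 9 genes and Aph1c (vertical axis), with bars for the SE and filled points for a q-value under 0.01. Of the 9 genes only Aph1b against form-deprivation myopia, at -0.79, is filled.

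Genes that work with the members were described from 4 lists, beside which stand the shares of all genes, 97.2% between strains and 15.5%, 10.9% and 5.12% for the 3 traits in the order above. Of 9 other proteases and γ-secretase subunits, all 9 passed the F-test between strains. For baseline refractive error 3 passed (33.3%, with 1 slope positive and 2 negative). For each of the other traits 0 passed, and 2 had an unadjusted p under 0.05. Bace2, a relative of Bace1, had a negative slope (t = -5.50, q = 2.71e-04), with 1.04 ± 0.42 cpm (SD, n = 3) in 129S1/Svlmj and 0.26 ± 0.08 cpm in CAST/EiJ. Mme, which encodes the amyloid-degrading protease neprilysin, was at 1.53 ± 1.49 and 0.22 ± 0.04 cpm in these strains (t = -4.17, q = 0.0020), and it did not pass without the lens-rich 129S1/Svlmj replicate 2 (q = 0.0110, over a range from 4.64e-04 to 0.301). Mme passed without both lens-rich libraries and with lens markers as a covariate, but not without PWK/PhJ (q = 0.0120) or CAST/EiJ (q = 0.0188). The gene with the positive slope was Aph1c. The median t of the list was -0.23, the same as for all genes.

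Of 14 adaptors that bind the intracellular domain of APP, all 14 passed the F-test between strains. For baseline refractive error, form-deprivation myopia and contrast sensitivity 0, 1 (7.14%) and 0 passed, with 3, 1 and 2 at an unadjusted p under 0.05. The 1 was Dab1, an adaptor of the reelin pathway, which fell with susceptibility to myopia, with 16.1 ± 0.57 cpm (SD, n = 3) in NZO/HlLtJ and 12.05 ± 0.54 cpm in CAST/EiJ (t = -4.49, q = 0.0019). Dab1 passed without each library, but not without CAST/EiJ (q = 0.0642) or the 3 wild-derived strains (q = 0.380) and not with strain as a random effect (q = 0.145), over a range from 8.26e-04 to 0.453.

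Of 22 genes for the trafficking or modulation of APP and the secretases, all 22 passed the F-test between strains. For these traits 6 (27.3%), 2 (9.09%) and 1 (4.55%) passed. Without single libraries the first count fell to 2 (PWK/PhJ replicate 1 or 3) or 3 (PWK/PhJ replicate 2 or 129S1/Svlmj replicate 3), the second to 1 (CAST/EiJ replicate 3), and the third was 0 to 2. The first count was 2 with the Benjamini-Hochberg adjusted p and without CAST/EiJ or NOD/ShiLtJ. It was 3 without the 2 lens-rich libraries and 1 without PWK/PhJ. With strain means as the unit, strain as a random effect or without the wild-derived strains it was 0. For baseline refractive error 2 had positive slopes (Gga1 and Rtn1) and 4 negative ones. The latter were Picalm and the whole BRI family, Itm2a (t = -4.66, q = 9.40e-04), Itm2b (t = -4.07, q = 0.0024) and Itm2c (t = -3.57, q = 0.0056). Itm2b, whose product binds APP, had a mean of 96.5 ± 2.20 cpm in 129S1/Svlmj and of 84.2 ± 3.12 cpm in CAST/EiJ. Itm2c did not pass without 129S1/Svlmj replicate 2 (q = 0.0133) or PWK/PhJ replicate 1 (q = 0.0121), 2 (q = 0.0112) or 3 (q = 0.0125), over a range from 5.75e-04 to 0.587. Tmed2 (t = -4.98, q = 9.56e-04) and Gga2 (t = -4.24, q = 0.0028) fell with form-deprivation myopia, and Gga2 did not pass without CAST/EiJ replicate 3 (q = 0.0133, over a range from 0.0015 to 0.455). Sorl1, the sorting receptor that holds APP away from the secretases, was at 45.8 ± 4.00 cpm in NZO/HlLtJ and 33.2 ± 6.82 cpm in CAST/EiJ (t = -3.90 for contrast sensitivity, q = 0.0091). It did not pass without any 1 of 14 libraries, each CAST/EiJ library among them (q = 0.0293, 0.0220 and 0.0494 without replicates 1, 2 and 3, over a range from 0.0018 to 0.802).

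Of 29 other substrates of γ-secretase or BACE1, 27 (93.1%) passed the F-test between strains. For the 3 traits 1 (3.45%), 1 (3.45%) and 2 (6.90%) passed, the last count being 0 without any 1 of the CAST/EiJ libraries. Scn2b, a sodium channel subunit cut by BACE1, fell from 22.6 ± 1.02 cpm (SD, n = 3) in NZO/HlLtJ to 13.1 ± 1.13 cpm in CAST/EiJ, both with form-deprivation myopia (t = -5.14, q = 7.64e-04) and with contrast sensitivity (t = -4.57, q = 0.0036). Bace1 itself stood at 46.0 ± 1.49 cpm in CAST/EiJ and at 36.8 ± 1.07 cpm in NZO/HlLtJ, but was highest in PWK/PhJ (53.8 ± 0.34 cpm). A link between the levels of Bace1 and Scn2b was not tested. Efnb2, an ephrin, fell with baseline refractive error from 8.05 ± 0.70 to 6.10 ± 0.09 cpm (t = -4.08, q = 0.0024). It did not pass without the 2 lens-rich libraries (q = 0.0126), without CAST/EiJ (q = 0.0263) or with strain as a random effect (q = 0.237), over a range from 0.0011 to 0.280. Cdh2, the neural cadherin, rose with contrast sensitivity from 50.2 ± 2.12 to 55.6 ± 0.73 cpm (t = 4.37, q = 0.0047). For contrast sensitivity Scn2b did not pass without CAST/EiJ replicate 1 (q = 0.0186), 2 (q = 0.0165) or 3 (q = 0.0218), over a range from 0.0012 to 0.802. Cdh2 did not pass without these libraries (q = 0.0133, 0.0121 and 0.0113) or without WSB/EiJ replicate 1 (q = 0.0121), 2 (q = 0.0117) or 3 (q = 0.0117), over a range from 0.0013 to 0.802.

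The t values given here for list genes belong to 14 calls, that of Aph1c included. With strain means as the unit 0 of the 14 passed, as did 0 of all 16400 genes for each trait by limma, where 1876, 1446 and 906 genes had an unadjusted p under 0.05. With strain as a random effect 208, 117 and 24 genes passed for the 3 traits and 0 of the 14 calls (q from 0.0520 to 0.441). Without CAST/EiJ 2 of the 14 passed, Bace2 and Itm2a, and without the wild-derived strains 0. With Xist as a covariate the share of all genes called for contrast sensitivity was 1.60% in place of 5.12%, and Cdh2 (q = 0.0174), Scn2b (q = 0.0136) and Sorl1 (q = 0.0406) did not pass for it, over ranges from 0.0013, 0.0012 and 0.0018 to 0.802.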

How the data were processed

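The authors sequenced 24 libraries of retinal RNA, used STAR for alignment to GRCm38/mm10 and Partek for gene counts, and turned the counts into cpm by the total of each library, with 0.0001 added. The paper names RefSeq as annotation, while the table's biotypes are of the Ensembl type. Coordinates of the 9 genes and Aph1c equal those of GENCODE vM21, which also gave exons and sequences. Between 87.7% and 90.2% of low values were whole reads within 0.01, so no test for counts was used. A mean of at least 0.5 cpm was required, and log2(cpm + 1) was fitted with limma 3.58.1 (R 4.3.3, eBayes with a trend), two-sided, with Storey's q-value under 0.01 over all 16400 genes. The study's methods name 0.05 for its analysis of variance, but its results were reported at 0.01, the limit taken here. Fits were an F-test over 8 strains, each strain against the mean of the other 7, and regressions on the strain means of 3 traits, calculated from the study's supplement with each library a replicate. The copy of the contrast sensitivity table used here does not reach A/J. Python 3.11.15, numpy 2.4.6, pandas 2.3.3 and Biopython 1.88 were used for the rest.

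The members and lists were chosen with earlier results of these data known. Named were all 9 members, Aph1c, up to 3 list genes per list and trait with the largest absolute t among those passing, and, with an exception, the 2 genes most like each member by Pearson's r. Gga1, Rtn1 and Picalm complete a count and were chosen after seeing their values. The 4 pathway lists and the cell type markers were written by hand. Alternatives were median-ratio scaling, quantile normalization, a pseudocount of 0.1, no filter, a filter at 5 cpm, the Benjamini-Hochberg adjusted p, Xist or lens markers as covariates, Aph1b and Aph1c added, strain means, strain as a random effect, ranks of the traits, and leaving out each library, each strain, the wild-derived strains or lens-rich libraries. The fits were tested on simulated data in which unchanged genes had no strain difference and libraries varied independently. That test could not show how often the trait regressions make false calls where strains differ for other reasons.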

Additional observations from a re-analysis of the deposited data

How the results depend on the processing

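No paired analysis was possible because replicate numbers only follow the order of the library codes. Of the summary counts, 71 values under alternatives other than leaving out 1 library stayed within 1.5 times the reported count and 17 did not, and for single genes and lists 1340 kept direction and call and 218 did not, where 100 calls were lost, 18 gained, 67 counts moved beyond 1.5 times and 33 signs turned. Beside counts of members stand the shares of all genes, which moved too. For baseline refractive error (0 of 9 genes, 15.5%) the count was 1 with median-ratio scaling (16.5%), quantile normalization (16.1%), lens markers as a covariate (15.0%), without NOD/ShiLtJ (11.5%) and without NZO/HlLtJ (18.9%), and 2 with ranks (20.0%) and without 129S1/Svlmj (21.2%), and 0 to 2 without single libraries (10.9% to 16.7%). For form-deprivation myopia (1 of 9, 10.9%) it was 0 with strain means (0 of 16400 genes), strain as a random effect (0.713%), without CAST/EiJ (1.90%) and without the wild-derived strains (2.27%), 2 without PWK/PhJ (12.7%), 3 without NZO/HlLtJ (20.7%), and 1 to 2 without single libraries (4.43% to 11.7%). For contrast sensitivity (0 of 9, 5.12%) it was 1 without 129S1/Svlmj (10.9%), NZO/HlLtJ (8.81%) or WSB/EiJ (4.49%), single libraries gave shares of 1.38% to 6.35%, and leaving out A/J gives no value. Between strains 4 of 9 genes differed without the wild-derived strains, where 50.3% of all genes did. The sign of t turned in these cases. For Ncstn and baseline refractive error t was 0.39 with median-ratio scaling, 0.36 with quantile normalization, 0.25 without A/J, 0.058 without C57BL/6J, 0.064 without NOD/ShiLtJ, 1.12 without WSB/EiJ, 0.86 without the wild-derived strains and 0.034 without the 2 lens-rich libraries (an alternative chosen after seeing the data), and -0.38 to 0.41 without single libraries. For Aph1a and contrast sensitivity it was -0.089 with ranks, -0.74 without WSB/EiJ, -1.16 without the wild-derived strains and -0.40 to 0.58 without single libraries. Without CAST/EiJ it was 1.09 for Aplp2 and 1.10 for Psen2 (baseline refractive error), 0.98 for Aplp2 and 0.88 for Psen2 (form-deprivation myopia), and 0.93 for Psen2 and 0.42 for Psenen (contrast sensitivity). Without NZO/HlLtJ it was -0.45 for App and 0.35 for Aph1a (form-deprivation myopia), and -0.11 for App and -0.022 for Bace1 (contrast sensitivity). It was -0.21 for App without 129S1/Svlmj (baseline refractive error) and 0.37 for Ncstn without WSB/EiJ (form-deprivation myopia). Without the wild-derived strains it was 0.019 for Aplp2 and 4.10 for Aph1b (baseline refractive error), 0.21 for Psen2, 0.51 for Psenen and -0.30 for Aph1c (form-deprivation myopia), and 0.19 for Psen2, 0.33 for Psenen, -0.44 for Ncstn, -0.50 for Aph1c and 0.67 for Sorl1 (contrast sensitivity). The cause was not tested. Scaling also moved the division of called genes by sign. For baseline refractive error 901 slopes were positive and 1641 negative, against 1243 and 1462 with median-ratio scaling and 1316 and 1328 with quantile normalization. For form-deprivation myopia the numbers were 650 and 1143, 868 and 957, and 835 and 950. Against the other strains 2445 genes were higher and 1499 lower in NOD/ShiLtJ (1984 and 1889, 1854 and 2056), and 2077 higher and 3588 lower in WSB/EiJ (2752 and 2829, 2778 and 2850). In CAST/EiJ 3327 genes were higher and 4767 lower (4108 and 4222, 4153 and 4046). With a mean of at least 5 cpm Psenen and Aph1c were not tested.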
